A study of Mus musculus with 6 samples.

Results

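The genes described are those that encode the extracellular start of Wnt signalling: the Wnt ligands, their Frizzled receptors, the R-spondins, the co-receptors *Lrp5* and *Lrp6*, and the R-spondin receptor *Lgr4*. Members were chosen by name, as every gene of the deposited table whose GENCODE M21 symbol is *Wnt* or *Fzd* with a number and an optional letter, or *Rspo* with a number, together with *Lrp5*, *Lrp6* and *Lgr4*. The rule found 36 of the 34866 genes in the table, comprising 19 Wnt ligands, 10 Frizzled receptors, 4 R-spondins and the 3 named genes. RNA had been extracted from adenomas excised from the small intestines of Apc1322T/+ and ApcMin/+ mice, both on a C57BL/6J background and aged between 100 and 120 days, with 3 libraries per genotype. All mice thus carry a truncating germline mutation in 1 copy of *Apc*, a negative regulator of β-catenin. The ApcMin allele encodes the shorter protein, which lacks the repeats through which Apc binds β-catenin and promotes its degradation, whereas the longer Apc1322T protein retains part of them. No normal tissue was included in this comparison. Adenomas hold stroma as well as epithelium, and fewer cells of a type cannot be told apart in such bulk RNA from less RNA per cell. By the study's methods a sample typically pools several RNA extractions of the same mouse, and the labels do not name the mouse behind a library. The p-values below therefore measure the spread between these samples.

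Wnt ligands are lipid-modified secreted proteins that bind a Frizzled receptor together with Lrp5 or Lrp6, which leads to the stabilisation of β-catenin and to transcription through TCF/LEF factors. Some ligands, above all Wnt5a and Wnt11, are known mainly for signalling through Frizzled receptors without β-catenin. R-spondins bind Lgr4 and its relatives and protect Frizzled receptors from removal by the ubiquitin ligases Rnf43 and Znrf3. In the normal intestine the ligands come from Paneth cells (Wnt3) and from fibroblasts and telocytes beneath the crypt (among them Wnt2b, Wnt5a and Rspo3), and they maintain the crypt stem cells. In an *Apc*-mutant cell β-catenin accumulates even without a ligand.

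Estimated counts per library summed to between 23132461 and 33518324, so that 3 counts, taken as the smallest signal that could be read, corresponded to between 0.0895 and 0.130 CPM when counts were scaled to the library total alone. This limit covers counting error only. All other CPM values are scaled to library totals adjusted by the TMM method, and levels are given as log2 CPM with a prior count of 2 added, in the order of replicates 1, 2 and 3. A log2 fold change above 0 denotes a higher level in ApcMin adenomas. Epithelial marker RNA was abundant in every library, as the 6 epithelial markers (*Epcam*, *Cdh1*, *Vil1*, *Krt8*, *Krt18* and *Krt20*) summed to between 9532 and 14926 CPM.

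With a limit of 3 counts in every library, 26 of the 36 members were detected, namely 11 of 19 Wnt ligands, 10 of 10 Frizzled receptors, 2 of 4 R-spondins (*Rspo3* and *Rspo4*) and all 3 of *Lrp5*, *Lrp6* and *Lgr4*. In at least 1 library, 32 members reached 3 counts. The 4 that never did were *Wnt1*, *Wnt3a*, *Wnt8a* and *Wnt16*. *Wnt3a* and *Wnt8a*, both activators of β-catenin signalling, had a count of 0 in all 6 libraries, which allows a level of up to 0.0895 to 0.130 CPM. *Wnt1*, the founding member of the family, was counted once in Apc1322T replicate 1, not at all in the other two Apc1322T libraries, and 0, 0 and 2 times in the ApcMin libraries. Enough counts for a test, by the filter of edgeR, were found for 25 members (10 Wnt ligands, 10 Frizzled receptors, *Rspo3*, *Rspo4*, *Lrp5*, *Lrp6* and *Lgr4*). The members below the filter are 11 in number, *Wnt1*, *Wnt2*, *Wnt3a*, *Wnt7a*, *Wnt8a*, *Wnt8b*, *Wnt9b*, *Wnt10b*, *Wnt16*, *Rspo1* and *Rspo2*.

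The promoters of 24 member genes were found among RefSeq windows of GRCm38.p6 that run from 250 bases before a transcription start to 50 after it, 27 windows in all. They were searched on both strands for the TCF/LEF core CTTTGAT, which reads ATCAAAG on the opposite strand. It lies in 2 of the 27 windows (7.41%), against 3.73% of all 32851 windows, and a match of letters is a description and not a binding site. The member windows were rich in G and C, with a median of 71.0% against 52.7% for all windows. Both windows with the core are shown with the core in capitals, beside that of *Wnt2b*, the ligand with the smallest p-value between the genotypes, in which these letters do not occur. The core starts at position -71 from the window's start of transcription in *Wnt5b* and at position -51 in *Wnt11*. The *Wnt5b* window belongs to a start inside its gene model (chr6:119432531-119544347, minus strand) and not to the outermost start. Each window is written 5′ to 3′ on the strand of its gene.
Wnt2b (chr3:104961660-104961959, minus strand): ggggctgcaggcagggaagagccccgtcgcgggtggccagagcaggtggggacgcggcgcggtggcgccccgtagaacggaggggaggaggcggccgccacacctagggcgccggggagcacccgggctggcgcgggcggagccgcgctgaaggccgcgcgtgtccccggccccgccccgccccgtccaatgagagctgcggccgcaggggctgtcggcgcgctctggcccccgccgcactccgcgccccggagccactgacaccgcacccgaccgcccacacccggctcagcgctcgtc
Wnt5b (chr6:119449337-119449636, minus strand): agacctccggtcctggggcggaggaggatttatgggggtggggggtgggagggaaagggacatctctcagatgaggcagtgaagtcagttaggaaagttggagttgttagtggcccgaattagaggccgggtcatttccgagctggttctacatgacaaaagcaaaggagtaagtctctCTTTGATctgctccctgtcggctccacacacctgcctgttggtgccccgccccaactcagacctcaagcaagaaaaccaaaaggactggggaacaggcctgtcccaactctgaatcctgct
Wnt11 (chr7:98834862-98835161, plus strand): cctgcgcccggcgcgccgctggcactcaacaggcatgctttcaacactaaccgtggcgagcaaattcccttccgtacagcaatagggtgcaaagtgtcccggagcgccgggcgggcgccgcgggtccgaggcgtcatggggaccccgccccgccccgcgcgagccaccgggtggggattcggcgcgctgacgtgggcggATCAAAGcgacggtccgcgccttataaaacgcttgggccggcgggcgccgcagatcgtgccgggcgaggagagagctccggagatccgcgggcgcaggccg

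The comparison of the genotypes asks whether the supply of Wnt ligands and receptors differs between adenomas with the shorter and the longer Apc truncation. None of the 25 members tested passed an adjusted p under 0.01 (edgeR's quasi-likelihood test, adjusted by Benjamini and Hochberg's method over 16536 genes), where 0.00% of all genes did. The smallest adjusted p among them was 0.257, for *Fzd3*. At an unadjusted p under 0.05 stood 3 of the 25 (12%), *Fzd3*, *Fzd8* and *Wnt2b*, each higher in ApcMin adenomas, against 15.1% (2495) of all genes tested. The libraries of the genotypes did not overlap for 4 of the 25 (16%), *Fzd3*, *Fzd8* and *Wnt2b* with higher and *Fzd9* with lower levels in ApcMin adenomas, against 21.0% of all genes in either direction, 11.0% higher and 9.96% lower. Both shares of members lie below those of all genes. With DESeq2, 1 of the 25 members (*Fzd3*, adjusted p = 0.00246) passed the threshold of 0.01, as did 194 of 17503 genes (1.11%). Without Apc1322T replicate 1, 14 of the 26 members then tested did not overlap, 11 of them higher in ApcMin, but 47.7% of all genes did not overlap in that setting either. Leaving out Apc1322T replicate 2 or ApcMin replicate 2 gave 8 members, with 25.1% and 31.6% of all genes.

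The log2 fold change was above 0 for 19 of the 25 members and below 0 for 6, with a median of 0.25 and a range from -0.45 to 1.60. Over all genes tested the median was 0.017, with 52.4% of genes above 0. The medians were 0.26 for the 10 Wnt ligands tested, 0.37 for the 10 Frizzled receptors, 0.54 for *Rspo3* and *Rspo4*, and 0.032 for *Lrp5*, *Lrp6* and *Lgr4*. The members were selected by name and share their libraries, so these medians are descriptions without a test.

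**Figure D1:**
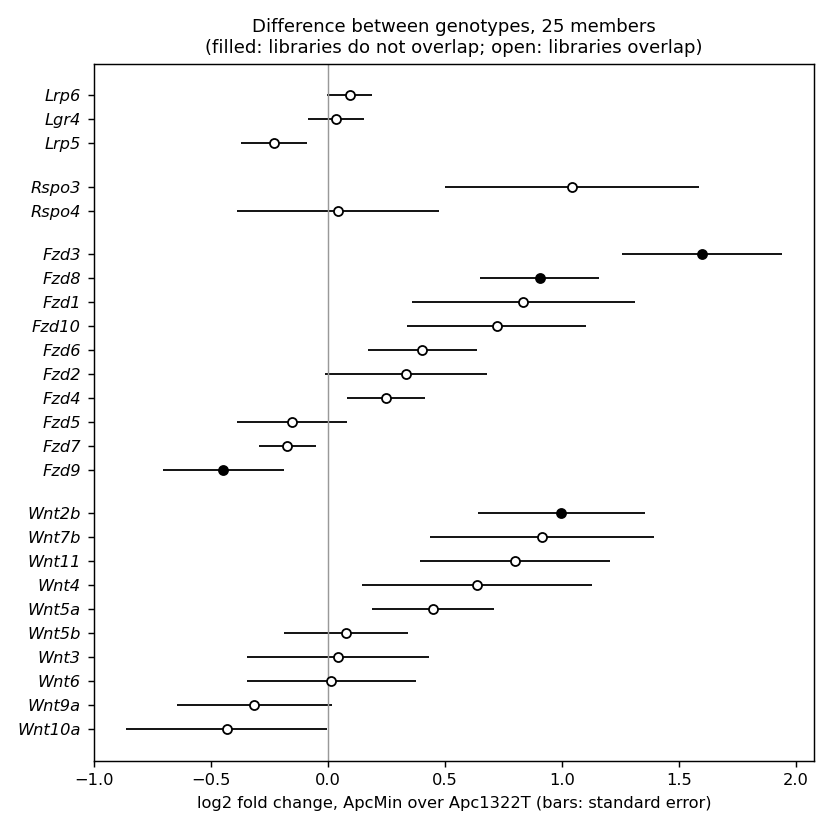
Log2 fold change of ApcMin over Apc1322T adenomas (horizontal axis) for the 25 members tested, with bars of 1 standard error, grouped from the top as co-receptors with *Lgr4*, R-spondins, Frizzled receptors and Wnt ligands. Filled points mark the 4 members whose libraries do not overlap between the genotypes; *Fzd3* lies farthest to the right at 1.60 and *Fzd9* farthest to the left at -0.45.

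Among the ligands, *Wnt5a* had the highest level per length. This ligand is known for signalling that does not use β-catenin and for its expression in mesenchyme. For comparisons between genes the CPM were divided by the length of the longest annotated transcript, and on this scale *Wnt5a* stood at 5.12 ± 1.49 CPM per kb (SD, n = 6 libraries) and *Wnt6*, a ligand also made by epithelia, at 4.28 ± 1.33. *Wnt5a* held 31.7% ± 7.8 of the summed level of all 19 ligands. It was the highest ligand in 4 of 6 libraries and *Wnt6* in Apc1322T replicate 2 and ApcMin replicate 2, so the order of the pair varies from library to library. *Wnt3*, the Paneth cell ligand, followed at 1.29 ± 0.44, then *Wnt5b* at 1.16 ± 0.20, *Wnt4* at 1.08 ± 0.64 and *Wnt11* at 0.97 ± 0.47, whose SDs overlap. With coding length in place of transcript length *Wnt5a* held 52.7% of the ligand sum and was highest in 6 of 6 libraries. Even *Wnt5a* stood only at the 45.9th percentile of all genes tested on the per-length scale.

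**Figure D2:**
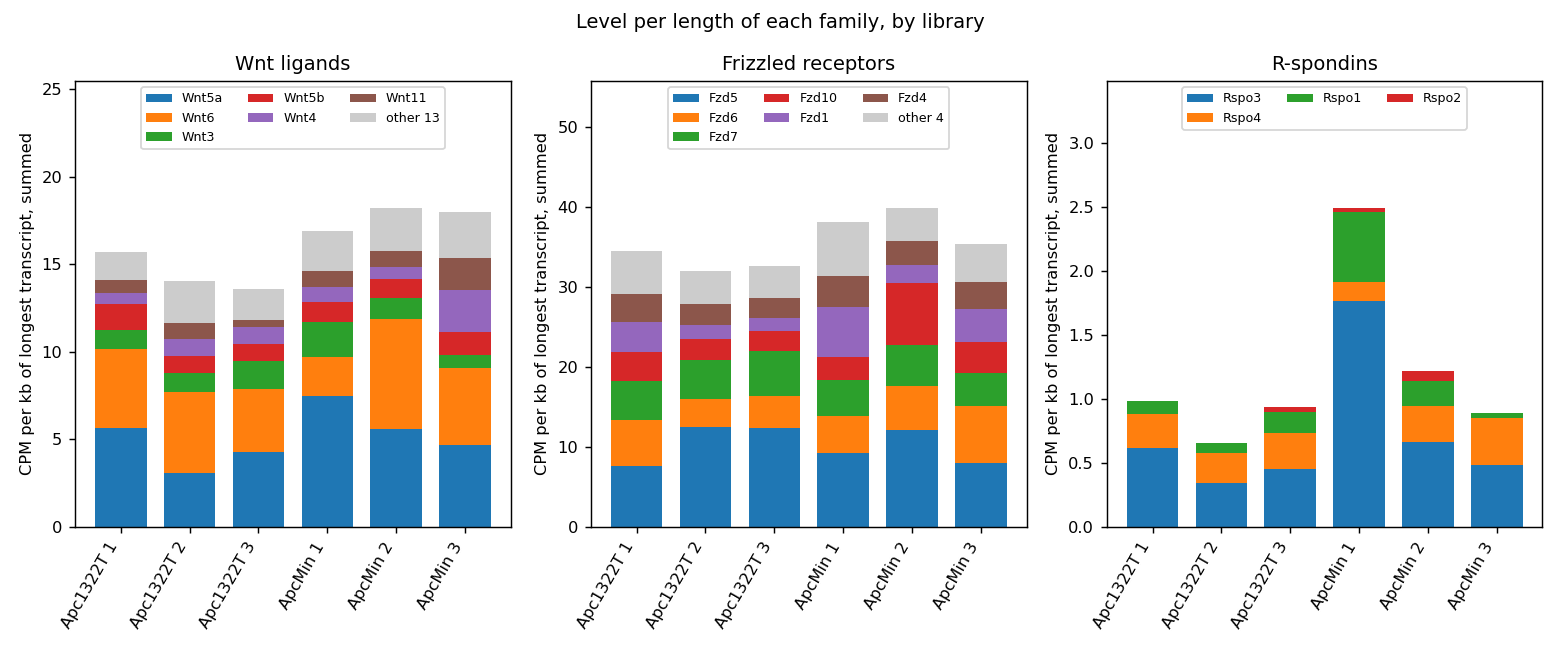
CPM per kb of the longest transcript in each of the 6 libraries, stacked by gene, for the Wnt ligands (left), Frizzled receptors (middle) and R-spondins (right); each vertical axis starts at 0 and has its own scale, and grey is the sum of the members not shown singly. *Wnt5a* and *Wnt6* make up most of the ligand bars, *Fzd5* is the largest receptor segment in 6 of 6 libraries, and the R-spondin bar of ApcMin replicate 1 (2.49) is the highest of its panel.

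*Wnt5a* log2 CPM was 5.30, 4.44 and 4.90 in Apc1322T adenomas and 5.71, 5.30 and 5.04 in ApcMin adenomas. The groups overlap, because Apc1322T replicate 1 was level with ApcMin replicate 2 and above replicate 3. The log2 fold change was 0.45 ± 0.26 (SE; adjusted p = 0.431 by edgeR). *Wnt6* log2 CPM was 3.24, 3.27 and 2.92 in Apc1322T and 2.24, 3.71 and 3.20 in ApcMin adenomas. Its lowest and its highest library were both ApcMin, and the log2 fold change was 0.014 ± 0.36. For *Wnt3* the values were 1.80, 1.77 and 2.34 against 2.63, 1.88 and 1.25, again with both extremes in ApcMin libraries and a log2 fold change of 0.040 ± 0.39. The direction of *Wnt3* and *Wnt6* changed with the test used, and neither is given one here. The summed Paneth markers, 1501 to 2536 CPM in Apc1322T and 2490 to 2802 CPM in ApcMin adenomas, overlapped as well.

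*Wnt2b* (chr3:104945272-104961921, minus strand) was the tested ligand that separated the genotypes. It activates β-catenin signalling and is known from the mesenchyme around the intestinal crypt. Its log2 CPM was -0.38, -0.03 and 0.47 in Apc1322T adenomas and 0.83, 1.35 and 0.78 in ApcMin adenomas. Each ApcMin library was above each Apc1322T library, at low counts of between 19 and 63. The fitted difference was a 2.00-fold higher level (log2 fold change 1.00 ± 0.36), with an unadjusted p of 0.0283 and an adjusted p of 0.308 by edgeR.

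*Wnt11*, a ligand known for β-catenin-independent signalling whose promoter is shown above, had the next smallest p among ligands. Its log2 CPM was 1.42, 1.72 and 0.68 in Apc1322T and 1.72, 1.70 and 2.70 in ApcMin adenomas, so that ApcMin replicate 3 alone was clearly above the rest (log2 fold change 0.80 ± 0.41; adjusted p = 0.385 by edgeR). The 5 ligands not yet described, *Wnt4*, *Wnt5b*, *Wnt7b*, *Wnt9a* and *Wnt10a*, overlapped between the genotypes. *Wnt7b*, an epithelial ligand, had the largest log2 fold change of these at 0.91 ± 0.48 and *Wnt10a* the lowest at -0.43 ± 0.43. For *Wnt5b*, whose promoter window also holds the core, it was 0.077 ± 0.26.

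Of the 9 ligands below the filter, *Wnt9b* and *Wnt10b* had non-overlapping libraries at very low counts. *Wnt9b* was counted 1, 4 and 3 times in Apc1322T and 10, 10 and 12 times in ApcMin adenomas, and *Wnt10b* 1, 2 and 2 times against 7, 4 and 8 times. *Wnt2*, a close relative of *Wnt2b*, had 6, 3 and 1 counts against 26, 5 and 10, and *Wnt7a* 6, 4 and 0 against 32, 5 and 23. These pairs overlap, since ApcMin replicate 2 had fewer counts than Apc1322T replicate 1. *Wnt8b* had between 3 and 10 counts in the 6 libraries.

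All 10 Frizzled receptors were detected in each library and passed the filter. *Fzd5*, a receptor known from intestinal epithelium and needed for Paneth cell maturation, had the highest level per length of the family in 6 of 6 libraries, at 10.3 ± 2.3 CPM per kb (SD, n = 6), and held 29.3% ± 7.7 of the receptor sum (39.7% with coding length). *Fzd6* at 5.08 ± 1.33 and *Fzd7* at 4.86 ± 0.55, the latter the receptor linked to Lgr5-positive stem cells, did not differ beyond their spread. *Fzd10* at 3.92 ± 1.98, *Fzd1* at 3.30 ± 1.80 and *Fzd4* at 3.15 ± 0.54 came next. *Fzd3* at 0.41 ± 0.27 and *Fzd8* at 0.53 ± 0.19 were the lowest of the 10 on this scale. The order below *Fzd5* depends on the length used. With coding length *Fzd4* came next at 13.1 ± 2.2 CPM per kb, ahead of *Fzd7* at 12.8 ± 1.4 and *Fzd6* at 10.3 ± 2.7. The low place of *Fzd3* goes with a longest transcript of 12734 bases, of which 1998 are coding.

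*Fzd5* log2 CPM was 5.73, 6.44 and 6.41 in Apc1322T adenomas and 5.99, 6.39 and 5.78 in ApcMin adenomas, with a log2 fold change of -0.16 ± 0.24. *Fzd6* was at 4.62, 3.91 and 4.13 against 4.33, 4.59 and 4.96 (0.40 ± 0.23). *Fzd7* was at 4.48, 4.46 and 4.70 against 4.35, 4.54 and 4.22 (-0.17 ± 0.12). The libraries overlapped for each of these 3 receptors, the highest by transcript length, and *Fzd7* varied least from library to library.

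*Fzd3* (chr14:65192449-65262463, minus strand), a receptor known best for axon guidance and planar cell polarity, showed the largest log2 fold change of the 25 members. Its log2 CPM was 1.75, 0.91 and 1.43 in Apc1322T adenomas and 2.51, 2.80 and 3.46 in ApcMin adenomas. The lowest ApcMin library lay above the highest Apc1322T library. The level was 3.02-fold higher (log2 fold change 1.60 ± 0.34), with an unadjusted p of 0.00255 and an adjusted p of 0.257 by edgeR. Leaving out 1 library at a time kept the log2 fold change between 1.27 and 1.82. Estimated counts of *Fzd3* were between 38.2 and 347 per library and not all whole. Salmon can divide a read between transcripts of different genes, so some reads may be shared with another gene, which was not examined.

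*Fzd8* (chr18:9212163-9218136, plus strand), a receptor of the Fzd5 subfamily, was at 1.50, 1.02 and 0.97 in Apc1322T and at 2.13, 1.82 and 2.22 log2 CPM in ApcMin adenomas. Again each ApcMin library was higher, and the difference was 1.87-fold (log2 fold change 0.90 ± 0.26; unadjusted p = 0.0102 and adjusted p = 0.279 by edgeR). *Fzd9* (chr5:135248938-135251230, minus strand) went the other way, with 2.28, 2.15 and 2.22 log2 CPM in Apc1322T and 2.14, 1.31 and 1.76 in ApcMin adenomas. The highest ApcMin library and the lowest Apc1322T library were nearly level, so this separation is slight (log2 fold change -0.45 ± 0.26; unadjusted p = 0.131 and adjusted p = 0.429 by edgeR).

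Of the other receptors, *Fzd1* ranged from 2.82 to 3.98 log2 CPM in Apc1322T and from 3.26 to 4.73 in ApcMin adenomas (log2 fold change 0.83 ± 0.48), and *Fzd10* from 3.00 to 3.60 and from 3.26 to 4.67 (0.72 ± 0.38). *Fzd2* and *Fzd4* had log2 fold changes of 0.33 ± 0.35 and 0.25 ± 0.17. The genotypes overlapped for each of these 4 genes.

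**Figure D3:**
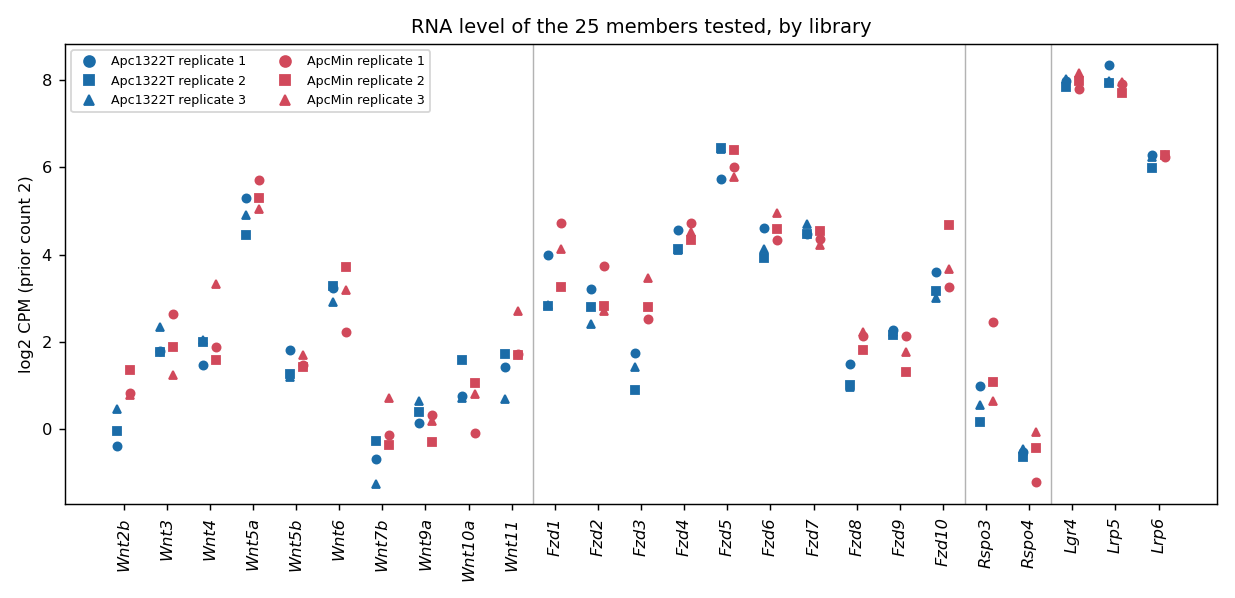
Log2 CPM with a prior count of 2 (vertical axis) of the 25 members tested, with 1 point per library, blue for Apc1322T and red for ApcMin; symbols mark the replicate number, and grey lines divide, from left to right, Wnt ligands, Frizzled receptors, R-spondins, and *Lgr4* with the co-receptors. Blue and red are apart for *Wnt2b*, *Fzd3*, *Fzd8* and, narrowly, *Fzd9*, while *Lgr4*, *Lrp5* and *Lrp6* have the tightest groups of points among the highly counted genes.

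*Lgr4*, the R-spondin receptor of crypt epithelium, and *Lrp5* had the highest levels per length of the 36 members, at 49.0 ± 4.5 and 28.3 ± 4.3 CPM per kb (SD, n = 6), and *Lrp6* stood at 7.94 ± 0.59. They lay at the 89.7th, 82.9th and 55.7th percentiles of all genes tested. *Lgr4* log2 CPM was 7.97, 7.83 and 8.02 in Apc1322T adenomas and 7.78, 7.97 and 8.14 in ApcMin adenomas (log2 fold change 0.032 ± 0.12). *Lrp5* was at 8.34, 7.92 and 7.96 against 7.90, 7.70 and 7.96 (-0.23 ± 0.14), and *Lrp6* at 6.28, 5.99 and 6.24 against 6.23, 6.28 and 6.28 (0.091 ± 0.098). The groups overlapped for all 3 genes, which together with *Fzd7* have the smallest standard errors of the 25 members.

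R-spondin RNA was scarce. *Rspo3*, the R-spondin known from stromal cells below the crypt, was the highest of the 4 in 6 of 6 libraries, with 0.72 ± 0.53 CPM per kb and 57.1% of the family's sum, ahead of *Rspo4* at 0.26 ± 0.071, *Rspo1* at 0.19 ± 0.19 and *Rspo2* at 0.024 ± 0.033. *Rspo3* log2 CPM was 0.99, 0.16 and 0.56 in Apc1322T adenomas and 2.46, 1.08 and 0.64 in ApcMin adenomas. ApcMin replicate 1 was far above the other libraries and replicate 3 within the Apc1322T range, and the log2 fold change of 1.04 ± 0.54 had an adjusted p of 0.394 by edgeR. Without ApcMin replicate 1 the log2 fold change was 0.27. *Rspo4* was at -0.52, -0.64 and -0.45 against -1.20, -0.43 and -0.06, with both extremes in ApcMin libraries. Estimated counts of *Rspo1* were 5.3, 3 and 7 against 36, 9 and 2, and those of *Rspo2* were 0, 0 and 3 against 3, 7 and 0.

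Summed per length over the 19 ligands, the level was 14.4 ± 1.1 CPM per kb (SD, n = 3) in Apc1322T adenomas and 17.7 ± 0.70 in ApcMin adenomas, with libraries from 13.6 to 15.7 and from 16.9 to 18.2. The 10 receptors summed to 33.1 ± 1.3 and 37.8 ± 2.2, with libraries from 32.1 to 34.5 and from 35.5 to 39.9. Neither sum overlapped between the genotypes, and both stayed apart with 3 definitions of gene length and 4 ways of scaling the libraries. These settings all use the same 6 libraries, and no such sums were made over other sets of genes. *Wnt5a*, *Fzd1*, *Fzd6* and *Fzd10*, whose own libraries overlapped, each held a much larger part of these sums than *Wnt2b*, *Fzd3* or *Fzd8*. The separation of the sums is therefore not one shown by each member. For receptors the margin was slight with coding length and DESeq2 size factors. There the highest Apc1322T library was at 98.9 and the lowest ApcMin library at 99.3 CPM per kb, with a ratio of means of 1.10. The ratios of ApcMin over Apc1322T means were 1.23 for ligands and 1.14 for receptors (1.37 and 1.27 when scaled to the library total alone), and no test was made of these sums. R-spondin sums were 0.859 ± 0.176 and 1.53 ± 0.85 and overlapped.

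Markers of stromal and epithelial cells also moved between the genotypes. The counts of markers that did not overlap stand beside 21.0% of all genes tested, in either direction. The 5 markers of telocytes and subepithelial myofibroblasts, cells known to secrete Wnt ligands and R-spondins, were *Foxl1*, *Gli1*, *Bmp5*, *F3* and *Nrg1*. They summed to between 76.9 and 88.4 CPM in Apc1322T and between 128.6 and 175.3 CPM in ApcMin adenomas. Of these 5 genes, 3 (*Gli1*, *F3* and *Nrg1*) did not overlap, whereas *Foxl1* and *Bmp5* overlapped. *F3* had the highest level of the 5 in every library and weighs most in the sum. Its log2 CPM was 5.67, 5.76 and 5.74 in Apc1322T and 6.41, 6.42 and 6.91 in ApcMin adenomas. Smooth muscle markers summed to 92.0 to 196.9 CPM against 213.7 to 313.6 CPM, with 2 of 5 genes not overlapping. The 6 epithelial markers were lower, at 11954 to 14926 against 9532 to 11439 CPM, with 3 of 6 genes not overlapping. The 6 fibroblast markers (*Col1a1*, *Col1a2*, *Col3a1*, *Dcn*, *Lum* and *Pdgfra*) overlapped as a sum, from 604 to 1523 against 982 to 3304 CPM, although *Lum* and *Pdgfra* did not. No marker of these 4 lists was at 0 in all libraries. *Fzd3*, *Fzd8*, *Wnt2b* and the sums of the ligands and receptors moved in the direction of the telocyte and smooth muscle lists. The sums of the macrophage, squamous epithelium, and enteric neuron and glia lists, given in the closing section, moved the same way. The shared direction is thus not particular to any of these lists. *Fzd9* moved the other way, and the R-spondin sums overlapped. The part of cell composition in these differences was not tested. Markers of the distal small intestine (*Fabp6*, *Slc10a2* and *Cubn*) divided the ApcMin libraries, with sums of 238 and 223 CPM in replicates 1 and 2 and 12.1 CPM in replicate 3, against 16.7 to 63.7 CPM in Apc1322T adenomas. *Fabp6* did not overlap between the genotypes (log2 fold change 6.95), but this difference rests on ApcMin replicates 1 and 2. Its log2 CPM was 6.99, 6.37 and 0.07 in ApcMin adenomas and -0.86, -0.53 and -0.54 in Apc1322T adenomas. The part of gut region in the members' differences was not tested.

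Across the 6 libraries, the 25 members tested were set against the mean log2 CPM of the 6 fibroblast markers, which was highest in ApcMin replicate 1 (8.29) and lowest in Apc1322T replicate 2 (5.96). Of the 25 correlations, 17 were above 0, 5 had Pearson's r above 0.8 and 1 had r under -0.8. The same correlations were not made over all genes, so these counts cannot be read as particular to the members. *Fzd1* followed the markers most closely, with r = 0.952 (exact permutation p = 0.00139, the smallest that 720 permutations can give; adjusted over 25 members p = 0.0347), Spearman's rho = 1.00 (adjusted p = 0.0694), and r = 0.984 over the 4 libraries left without both extremes. *Fzd4* had r = 0.927 (exact permutation, adjusted p = 0.0694) and rho = 0.886, with r = 0.967 over those 4 libraries. *Fzd8* had r = 0.815 (exact permutation, adjusted p = 0.179), with r = 0.82 over the 4 libraries.

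*Wnt5a* and *Rspo3* had r = 0.913 and r = 0.911 (exact permutation, adjusted p = 0.113 and 0.104; rho = 0.829 and 0.771), but r fell to 0.448 and 0.262 without ApcMin replicate 1 and Apc1322T replicate 2, so these relations rest on those libraries. *Wnt10a* had r = -0.911 (exact permutation, adjusted p = 0.160; rho = -0.600) and 0.045 without that pair. For *Fzd3* and *Wnt2b*, which separate the genotypes, r was 0.626 and 0.331 (exact permutation, adjusted p = 0.441 and 0.743; rho = 0.714 and 0.371). *Fzd1* alone of the 25 members passed an adjusted p under 0.05 by Pearson's r, with no share of all genes to set beside it. By rank the smallest p that 6 libraries allow is 0.00278, so that no single member could pass after adjustment over 25. All 6 points share the normalisation of their library, and 3 libraries per genotype are too few for a correlation within a genotype. The permutations mixed libraries of both genotypes. A difference between the genotypes that a member shares with the markers therefore enters r and its p, and its part was not tested.

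**Figure D4:**
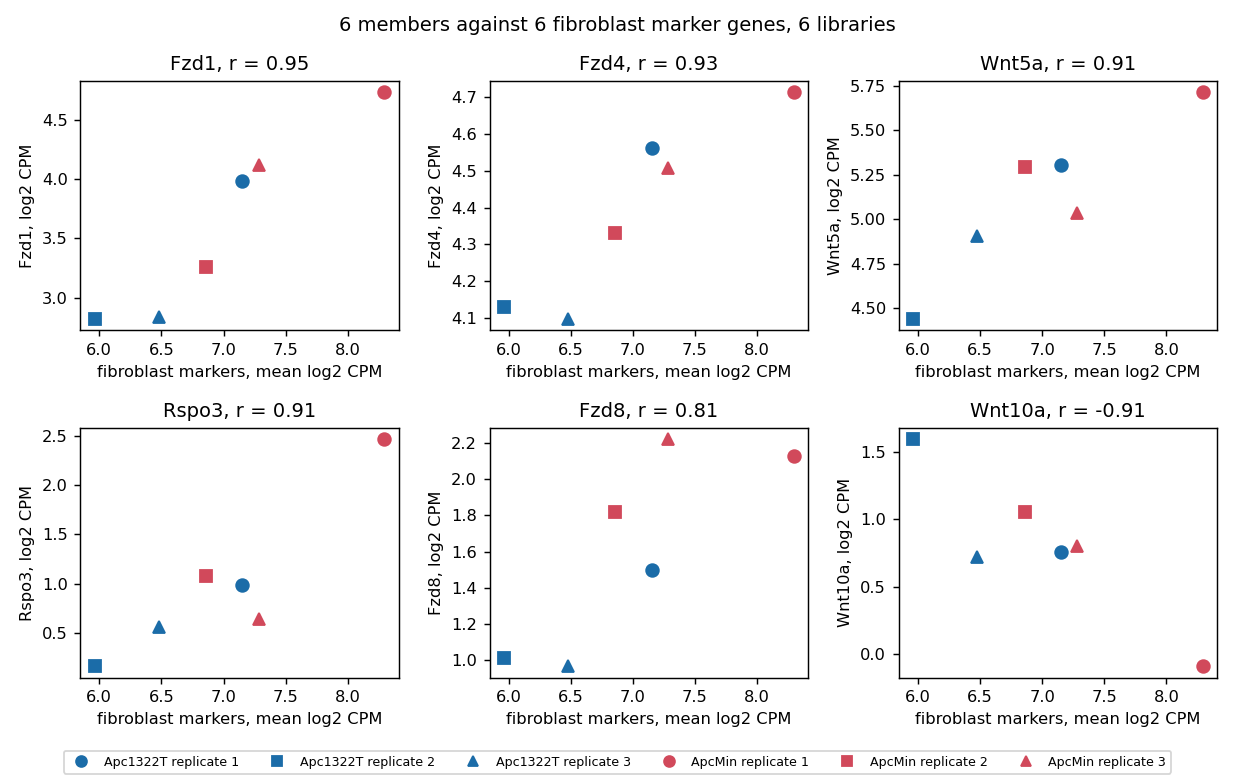
Log2 CPM of 6 members (vertical axes, each with its own range) against the mean log2 CPM of 6 fibroblast markers (horizontal axes), with 1 point per library, blue for Apc1322T and red for ApcMin, and Pearson's r over 6 libraries in each title. *Fzd1* and *Fzd4* climb across the whole range of the markers, whereas r for *Rspo3* and *Wnt10a* is 0.262 and 0.045 over the 4 libraries between the outermost points.

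The other genes of the pathway's outer steps were a list of 28 genes for ligand lipidation and secretion, secreted inhibitors, further Wnt receptors, Frizzled accessory proteins, R-spondin receptors with the ubiquitin ligases, and the Dishevelled adaptors. Of the 24 tested, 0 passed an adjusted p under 0.01 by edgeR or by DESeq2, 6 (25%) had an unadjusted p under 0.05, of which 5 were higher in ApcMin, against 15.1% of all genes tested. The libraries did not overlap for 4 (16.7%), all higher in ApcMin, against 21.0% of all genes in either direction and 11.0% in this one. The median log2 fold change was 0.24. Both conditions were met by 3 genes. *Lgr6*, a relative of *Lgr4* that also binds R-spondins, was at -0.96, -0.35 and -1.24 log2 CPM in Apc1322T and at 1.00, 1.23 and 0.03 in ApcMin adenomas (log2 fold change 1.77 ± 0.47; unadjusted p = 0.00775 by edgeR). *Sfrp1*, a secreted inhibitor that binds Wnt ligands, was at 4.45, 3.27 and 4.29 against 6.34, 4.54 and 5.12 (1.45 ± 0.53; unadjusted p = 0.0341 by edgeR). *Reck*, a membrane protein that acts with Wnt7a and Wnt7b, was at 0.79, 0.33 and 0.68 against 1.36, 1.23 and 1.48 (0.77 ± 0.26; unadjusted p = 0.0213 by edgeR). In each of these genes all 3 ApcMin libraries were above the Apc1322T libraries, by a narrow margin for *Sfrp1*.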

How the data were processed

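RNA-seq of adenomas was available as 3 Apc1322T and 3 ApcMin libraries. The authors quantified single-end reads of 50 bases from a strand-specific kit with Salmon on the GRCm38 transcriptome (GRCm38.p6 in the submitters' notes, which also name DESeq2) and deposited estimated counts per gene, not normalised. Paralogues with shared sequence can exchange reads, and counts were whole in all libraries for 27 of 36 members. Gene models of 6 members (*Wnt5a*, *Wnt7b*, *Wnt11*, *Fzd5*, *Fzd6* and *Rspo3*) overlap another gene, each on the opposite strand. Members, lists and tests were chosen with earlier results of these data known.

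GENCODE M21 gave symbols for the Ensembl identifiers of 34652 of 34866 genes. Counts were rounded, filtered with filterByExpr (minimum count 10, minimum total 15) to 16536 genes, scaled by TMM and compared in edgeR 4.0.16 (R 4.3.3) by a quasi-likelihood test with robust estimation, calling genes at a Benjamini-Hochberg adjusted p under 0.01. DESeq2 1.42.0, limma-voom (limma 3.58.1), other scalings, filters and gene lengths and each library left out were alternatives. The procedure was tested on simulated data, with changes placed only in genes above the median level. There edgeR recovered 55.6% of log2 fold changes of size 1 and 97.0% of those of size 2, and DESeq2 90.5% and 98.5%. Recovery in scarcer genes was not simulated. Groups followed the sample labels. By rule, values for all 6 libraries are given for tested members that did not overlap, had an unadjusted p under 0.05 or were among the 3 highest of their class per length, and for *Lrp5*, *Lrp6* and *Lgr4*, and other pathway genes are named where both of the first conditions hold. *Wnt11*, the members below the filter given with their counts, and *Notum*, *Wif1*, *Dkk3* and *Lgr5* were added after their values were seen. Marker lists of epithelial, stromal, immune and neural cells were summed, and those not mentioned in the report overlapped or are given in the closing section. Library totals of 23132461 to 33518324 set the counting precision, while the spread between 3 libraries limits the tests.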

Additional observations from a re-analysis of the deposited data

How the results depend on the processing

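The members called were 0 in each setting other than DESeq2's Wald test, which called 1 (*Fzd3*), and the genes called over the whole table were 0, but 194 with DESeq2, 1 without a filter on low counts, 1 at an adjusted p under 0.05, and 0 to 1 with a library left out, the 1 being without ApcMin replicate 3. Members that did not overlap numbered 5 to 14 of 25 to 28 tested with a library left out, 14 without Apc1322T replicate 1, where 25.1% to 47.7% of all genes did not overlap, against 4 with all libraries. Between 3 and 6 members had an unadjusted p under 0.05 in all settings. With coding length, *Wnt5a* held 52.7% and *Fzd5* 39.7% of their family's level. Of 25 log2 fold changes, 18 kept their direction in every setting. With limma-voom, *Wnt3* was at -0.021, *Wnt6* at -0.17 and *Rspo4* at -0.077, with the replicate block at -0.038, -0.088 and -0.029, and with DESeq2 *Wnt6* was at -0.0026. With a library left out the ranges were -0.40 to 0.32 for *Wnt3*, -0.36 to 0.32 for *Wnt6*, -0.27 to 0.33 for *Rspo4*, -0.11 (without ApcMin replicate 3) to 0.93 for *Wnt4*, -0.039 to 0.31 for *Wnt5b*, -0.077 to 0.58 for *Fzd2* and -0.064 to 0.12 for *Lgr4*; the cause was not tested. A prior count of 0.5 moved the log2 CPM of 6 scarce members.

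The labels use replicate numbers 1 to 3 in both genotypes and do not say whether the numbers pair libraries. Deviations of same-numbered libraries from their genotype's mean had correlations of -0.014, 0.16 and -0.29. Those of unlike-numbered libraries ran from -0.36 to 0.33. So few values showed no pairing but cannot exclude it. With the replicate number as a block, 0 members and 0 genes were called and 4 members had an unadjusted p under 0.05. Of the 11 members below the filter, all but *Wnt3a* and *Wnt8a*, which have no counts, could be tested without it, with *Wnt7a* at the smallest unadjusted p (0.0484 by edgeR).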

Other observations

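Marker lists of other cells moved as follows, where 21.0% of all genes tested did not overlap in either direction. Squamous epithelium markers, which intestinal epithelium is not known to express, summed to between 6.3 and 8.7 CPM in Apc1322T and between 33.7 and 45.7 CPM in ApcMin adenomas, with 3 of 6 genes not overlapping. Macrophage markers summed to 60.9 to 74.1 CPM against 74.8 to 149.3 CPM, with 2 of 5 genes not overlapping, and markers of enteric neurons and glia to 3.49 to 4.07 CPM against 4.13 to 5.50 CPM, with 0 of 5 genes not overlapping. The sums for endothelium, T cells, B and plasma cells, goblet cells, enterocytes, the crypt-like adenoma genes and proliferation overlapped between the genotypes. The part of these cells in the members' values was not tested.

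Several of the secreted inhibitors stood higher per length than the highest ligand, *Wnt5a* (5.12 ± 1.49 CPM per kb, SD, n = 6). *Notum*, an enzyme that removes the lipid from Wnt ligands, was at 101 ± 30.1 CPM per kb, *Wif1*, which binds Wnt ligands, at 53.6 ± 14.1 and *Dkk3* at 29.2 ± 7.1, and each overlapped between the genotypes. *Lgr5*, the stem cell relative of *Lgr4*, was at 7.15, 6.49 and 6.95 log2 CPM in Apc1322T and at 6.20, 6.20 and 6.50 in ApcMin adenomas (log2 fold change -0.58 ± 0.18; unadjusted p = 0.0157 by edgeR), with an overlap between 1 library of each genotype.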
